A study of Caenorhabditis elegans with 2 samples.

Results

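The small nuclear RNA (snRNA) genes of Caenorhabditis elegans other than the spliced-leader genes were examined for peaks of CHD-7, a worm protein of the CHD family of chromatin remodellers. The genes were those with the biotype snRNA in the Ensembl annotation whose name does not begin with sls-, which gave 99 of the 129 snRNA genes and of 46890 annotated nuclear genes. The data were lists of ChIP-seq (chromatin immunoprecipitation and sequencing) peaks from 2 biological replicates of strain OP609, genotype unc-119(tm4063) III; wgIs609. This strain carries a stably expressed CHD-7 fused at its C terminus to GFP and FLAG, and chromatin of whole mixed-sex young adults, 67 hours after synchronisation as starved L1 larvae, was precipitated with an antibody against GFP. All samples formed 1 group, so no comparison between conditions was possible, and whole animals do not show in which tissue a peak arose. Peak lists of other tagged proteins in the same animals were not analysed here, so the peaks described cannot be called particular to CHD-7.

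Small nuclear RNAs are the RNA core of the spliceosome. U1 pairs with the 5′ splice site, U2 with the branch point, and U4, U5 and U6 join as a complex in which U6 later takes part in catalysis. Most are made by RNA polymerase II and U6 by RNA polymerase III, and in both cases a proximal sequence element upstream of the gene recruits the SNAPc complex. Nematodes also have SmY RNAs, from the smy genes, which are bound by Sm proteins and linked to trans-splicing. CHD proteins are ATP-driven remodellers that move nucleosomes.

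A reproducible summit within 100 bp of the gene was found at 10 of the 99 genes, or 10.1% (95% Wilson interval 5.58 to 17.6), beside 3.48% of all annotated genes. They were W05B2.8, sup-6, F54D8.7, C52E4.8, M163.13, sup-39, mir-1831, F38E11.10, R07E5.16 and F08H9.11. A summit is the base at which the authors' peak caller placed the maximum of a peak, and the reproducible list holds the 1884 pooled entries of highest signal. A further 27 genes had a summit only among the 30000 pooled candidates, which include background. In all, 37 genes, or 37.4% (28.5 to 47.2), had a pooled candidate, beside 27.3% of all annotated genes, and 62 had none. The annotated genes include 15363 piRNA genes, of which 0.026% had a reproducible summit and 0.462% a pooled candidate, which lowers both all-gene shares. Among protein-coding genes the pooled share was 47.6%, above that of the snRNA genes. The gene mir-1831 is a 22-base entry that the annotation also files as snRNA, lies inside sup-39 and shares its peak, so the 10 genes stand for 9 separate loci.

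The reproducible share of the snRNA genes was lower in value than those of the spliced-leader, tRNA and snoRNA genes. It was 30% (16.7 to 47.9) of the 30 spliced-leader genes, 37.4% (33.7 to 41.3) of 612 tRNA genes and 20.2% (16.3 to 24.8) of 346 snoRNA genes. Among protein-coding genes it was 4.33% (4.06 to 4.62). Of the genes with a pooled candidate, 27.0% of the snRNA genes (15.4 to 43.0) had a reproducible summit, beside 12.7% of all annotated genes. The same share was 9.1% for protein-coding, 52.6% for snoRNA and 58.1% for tRNA genes, and 81.8% for the 11 spliced-leader genes with a candidate. These shares were not tested against each other, and copies of 1 gene are not independent. The plot of shares by gene class shows the snRNA genes between the snoRNA genes and the protein-coding genes for reproducible summits.

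**Figure D1:**
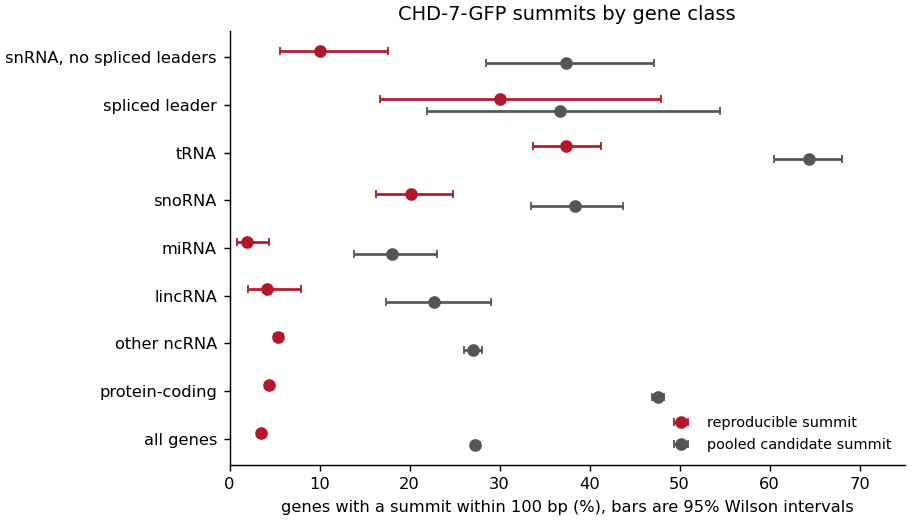
Share of genes with a CHD-7-GFP summit within 100 bp, in percent, for each annotated gene class. Red points show the reproducible list and grey points the pooled candidates, with 95% Wilson intervals, and the snRNA genes without spliced leaders stand at 10.1% and 37.4%.

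The upstream sequences of the 9 loci are shown because most of them hold letters that recur upstream of part of the snRNA genes. In addition, the strongest summit of 5 of the 9 loci lies within them. Each line gives the 100 bases before the annotated 5′ end, 5′ to 3′ on the strand of the gene, from the RefSeq WBcel235 assembly, which is the ce11 build. Capitals mark 2 patterns. The first is a gapped word, AANNC followed after 6 bases by TGTC, and the second is TATATAA.
W05B2.8: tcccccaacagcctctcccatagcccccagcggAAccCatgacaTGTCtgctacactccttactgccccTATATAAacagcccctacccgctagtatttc
F54D8.7: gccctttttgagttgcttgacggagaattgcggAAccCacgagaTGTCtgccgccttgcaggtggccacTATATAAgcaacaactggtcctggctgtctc
R07E5.16: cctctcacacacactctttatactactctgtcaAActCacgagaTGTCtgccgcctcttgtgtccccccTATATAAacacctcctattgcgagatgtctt
M163.13: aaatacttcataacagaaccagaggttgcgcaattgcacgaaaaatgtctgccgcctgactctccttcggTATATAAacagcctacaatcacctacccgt
sup-6: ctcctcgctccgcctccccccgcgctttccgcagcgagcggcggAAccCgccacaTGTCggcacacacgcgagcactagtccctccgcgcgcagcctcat
sup-39: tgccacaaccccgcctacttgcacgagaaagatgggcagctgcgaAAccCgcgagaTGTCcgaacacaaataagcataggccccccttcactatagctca
F08H9.11: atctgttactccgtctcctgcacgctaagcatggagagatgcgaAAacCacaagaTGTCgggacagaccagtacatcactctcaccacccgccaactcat
C52E4.8: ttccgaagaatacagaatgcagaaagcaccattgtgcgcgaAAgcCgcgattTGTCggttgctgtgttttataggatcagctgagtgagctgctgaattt
F38E11.10: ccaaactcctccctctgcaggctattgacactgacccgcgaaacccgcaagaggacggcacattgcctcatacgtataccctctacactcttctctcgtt

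These stretches lie at chrIII:10989579-10989678 (W05B2.8, plus strand), chrIII:5080899-5080998 (F54D8.7, minus), chrIII:4414085-4414184 (R07E5.16, plus), chrX:14476767-14476866 (M163.13, plus), chrII:12944968-12945067 (sup-6, minus), chrII:6968559-6968658 (sup-39, minus), chrV:14468734-14468833 (F08H9.11, minus), chrV:11980018-11980117 (C52E4.8, plus) and chrIV:9444542-9444641 (F38E11.10, plus). The gapped word was found on the gene strand upstream of 34 of the 99 genes, or 34.3%, beside 0.661% of all annotated genes, and on either strand in 34.3% and 1.06%. Where present, its copy nearest the 5′ end began at positions -71 to -29 from that end, with a median of -57.5. Some genes recorded at -29, such as F07C6.5, also hold the word farther upstream. The value of -71 is that of T27E4.22, which overlaps T27E4.12, where the word begins at -56. TATATAA lay upstream of 18 of the 99 genes on either strand, or 18.2%, beside 3.52% of all genes. Both patterns were written down after the sequences of the genes with a reproducible summit had been read, so their frequency among those genes is no support for a link.

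Sequence sorted most of the genes into 5 families, each formed by chaining genes of at least 90% identity, and named here by its commonest length. The annotation used here gives the genes no U class, so the families are described by the letters they hold. The 102-base family had 22 genes, 21 of which hold ACAGAG, known as a conserved box of U6. The 165-base family had 13 genes, 12 of them with TACCTG, letters known from the 5′ end of U1, where it pairs with the 5′ splice site. This family includes sup-6 and sup-39, genes first known from suppressor mutations. The 187-base family had 19 genes, 18 with GTAGTA, letters known from the branch-point pairing part of U2. The 122-base family had 12 genes, 11 with GCCTTT, known from the loop of U5, and the 144-base family had 5 genes. Another 10 were smy genes and 18 were other genes, mir-1831 among them.

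One gene of each of 2 families is printed, with the family's letters in capitals, since one family held 3 genes with a reproducible summit and the other none. They are sup-39 (chrII:6968394-6968558) of the 165-base family and Y57G11C.35 (chrIV:14764848-14765034) of the 187-base family.
sup-39: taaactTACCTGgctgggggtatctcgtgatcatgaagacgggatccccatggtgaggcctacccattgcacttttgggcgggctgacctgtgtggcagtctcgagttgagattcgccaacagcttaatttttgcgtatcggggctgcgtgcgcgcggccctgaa
Y57G11C.35: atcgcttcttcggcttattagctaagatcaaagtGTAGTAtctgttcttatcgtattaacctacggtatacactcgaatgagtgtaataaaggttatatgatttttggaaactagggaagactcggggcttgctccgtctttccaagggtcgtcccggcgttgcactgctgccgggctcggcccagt

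Reproducible summits were spread over the families. The 102-base family had 3 (W05B2.8, F54D8.7 and R07E5.16), the 165-base family 3 (sup-6, sup-39 and F08H9.11), the 144-base family 1 (C52E4.8) and the 122-base family 1 (F38E11.10). The 187-base family had none among 19 genes, though 9 of them, or 47.4%, had a pooled candidate. The smy genes had none among 10 and pooled candidates at 3. Candidates were commonest in value in the 165-base family, at 9 of 13 genes, or 69.2%. Among the 18 other genes, M163.13 and mir-1831 had a reproducible summit and the remaining 16 had no candidate. Counting each group of near-identical genes as 1, with a summit if any of its genes had one, gave a reproducible summit in 6 of 32 groups, or 18.8%. One of the 6 is mir-1831, which shares its peak with sup-39. All annotated genes were not grouped in this way, so this share has no like value beside it.

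**Figure D2:**
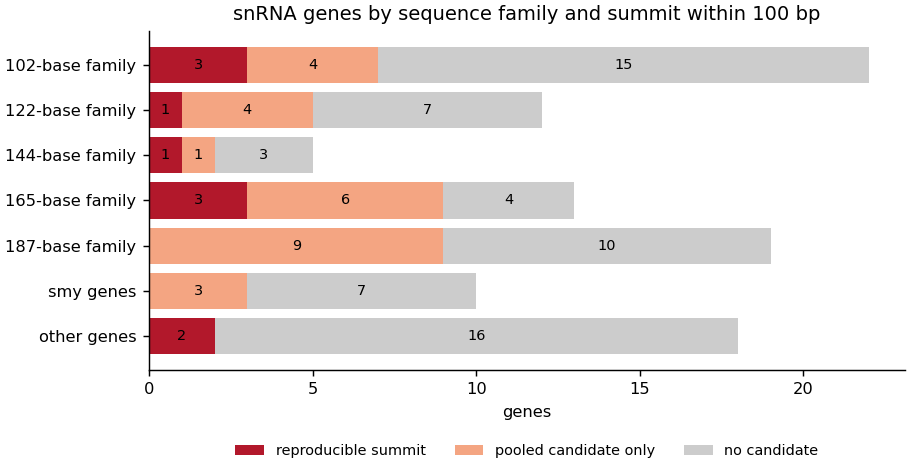
Number of snRNA genes in each sequence family with a reproducible summit, with a pooled candidate only, or with no candidate within 100 bp. Each bar is split by these 3 states, and the 187-base family shows 9 genes with a candidate only and 10 with none.

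W05B2.8, of the 102-base family, had the highest signal of the snRNA genes. It lies on the plus strand in an intron of the dynein heavy chain gene dhc-4. Its strongest summit had a pooled signal of 638 (rank 54 of the list) and ranked 43 in replicate 1 and 68 in replicate 2. It lay at position -27 from the 5′ end in the pooled and the replicate 2 lists and at -24 in replicate 1. A weaker summit, at pooled signal 254, lay 76 bp past the 3′ end in all 3 lists. Both replicates placed the strongest summit within a few bases of TATATAA, which begins at position -31.

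The other genes of this family behaved differently from one another although 14 of the 22 are identical in sequence. F54D8.7, on the minus strand of chromosome III outside any protein-coding gene, had a signal of 370, rank 255, with ranks 225 and 278 in replicates 1 and 2 and a summit at position -29. R07E5.16, in an intron of mpc-1, a mitochondrial pyruvate carrier gene, had a signal of 244, rank 733, with ranks 1110 and 637. Its summit lay at -77 in the pooled list, at -53 in replicate 1 and at -85 in replicate 2. Of the 14 identical genes, W05B2.8 and R07E5.16 had a reproducible summit, 4 a candidate only and 8 no candidate. The 14 had 14 different upstream sequences, and those of W05B2.8 and R07E5.16 matched at 50% of aligned positions without gaps.

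A pair of identical copies without any candidate are printed to set beside W05B2.8 and R07E5.16. Y17G9A.90 is preceded by chrIV:4866711-4866810 and K09B11.16 by chrIV:13443645-13443744.
Y17G9A.90: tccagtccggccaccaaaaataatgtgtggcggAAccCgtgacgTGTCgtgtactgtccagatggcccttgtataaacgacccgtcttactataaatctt
K09B11.16: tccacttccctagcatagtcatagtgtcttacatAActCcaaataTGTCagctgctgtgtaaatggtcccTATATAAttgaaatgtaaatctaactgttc
Y17G9A.90 holds the gapped word and not TATATAA, and K09B11.16 holds both, so neither pattern by itself separated genes with a summit from genes without. Among the 8 identical copies with no candidate, 3 held the gapped word and 6 held TATATAA. K09B11.16 is 1 of 6 snRNA genes inside mam-3, of which none had a reproducible summit and 1 had a candidate. Upstream of these 6 genes, the share of 50-base words that occur once in the genome was between 30.5%, at K09B11.16, and 85.0%. Upstream of both W05B2.8 and Y17G9A.90 it was 100%. Over all 8 identical copies with no candidate it ran from 30.5% to 100%, and over the 2 with a reproducible summit from 97.5% to 100%. Upstream of Y17G9A.85 and T08B6.62 it was 100%. Both are identical in sequence to F54D8.7, hold both patterns and had no candidate. The part of unique mapping in the missing peaks was not tested.

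In the 165-base family, sup-6 had summits on both sides. The gene lies on the minus strand at chrII:12944803-12944967, in an intron of F58G1.7. The stronger summit, at signal 609 and rank 60, lay 17 bp past the 3′ end, and the weaker one, at 413 and rank 201, lay at position -28. The stronger one ranked 69 in replicate 1 and 51 in replicate 2, and the weaker one 206 and 116. Both replicates gave the 3′ summit the higher signal.

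The other gene of this family known from suppressors, sup-39, lies in an intron of C15F1.5 and had 1 reproducible summit at position 6, at signal 265 and rank 597. Replicate 1 placed its summit at 32, rank 717. Replicate 2 instead gave a pair of summits, at 187 and -12, ranked 605 and 806. F08H9.11 had the lowest signal of the 10 genes, at 195, rank 1226, with ranks 1393 and 1566. Its pooled summit lay at 29, inside the gene, whereas both replicates put it upstream, at -36 and -37. An antisense ncRNA overlaps each of these genes, C15F1.14 at sup-39 and F08H9.13 at F08H9.11.

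C52E4.8, of the 144-base family, had a summit at position -18, at signal 348 and rank 298, and another 60 bp past the 3′ end at signal 285. Replicate 2 gave a similar pair, at -15 and 67 bp past the 3′ end, with ranks 189 and 290. Replicate 1 gave 1 summit at 135, inside the gene, at rank 729, so the replicates differed here in position and in rank. F38E11.10, of the 122-base family, had a summit at -29, at signal 247 and rank 716, and another 55 bp past the 3′ end at signal 169. Replicate 1 gave both, ranked 673 and 2935, while replicate 2 gave 1 summit 16 bp past the 3′ end at rank 1116. The second summit lies in the annotated gene hsp-12.3, a small heat shock protein gene on the opposite strand.

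M163.13, an 80-base gene on the X chromosome, shares no family with other snRNA genes and lay outside protein-coding genes. Its signal was 327, rank 353, with ranks 321 and 446. The summit lay inside the gene, at 28 in the pooled list, 52 in replicate 1 and 2 in replicate 2. It is preceded by TATATAA at position -30 and lacks the gapped word.

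**Figure D3:**
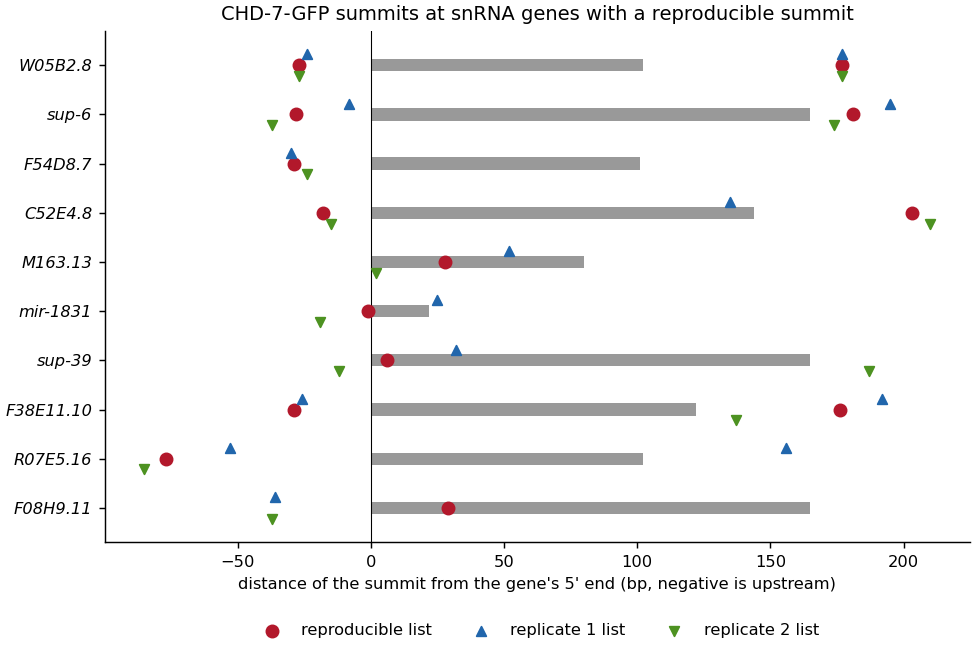
Position of each summit from the 5′ end of the gene, in bp along the gene's own strand, for the 10 genes with a reproducible summit, ordered by rank. Grey bars are gene bodies, red circles the reproducible list, blue triangles replicate 1 and green triangles replicate 2. The summits of W05B2.8 lie at -27, -24 and -27 upstream, and 4 genes have a red circle on each side.

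The summits more often flanked the genes than lay within them. Of the 14 pairs of a reproducible summit and a gene, 7 were upstream, 3 in the gene body and 4 past the 3′ end. Leaving out mir-1831, 6 of 13 summits, or 46.2% (23.2 to 70.9), were on the promoter side. The 4 genes with a pair of reproducible summits (W05B2.8, sup-6, C52E4.8 and F38E11.10) each had one upstream and one downstream, 204 to 221 bp apart. Of the genes with more than 1 summit, summits on both sides and none inside were found at 10 of 10 in the pooled list, 7 of 8 in replicate 1 and 6 of 9 in replicate 2. Summits of 1 gene were at least 199 bp apart in every list, so with a window of 100 bp a second summit could hardly fall elsewhere, and these counts show little beyond that spacing. Over the 37 genes with a pooled candidate, 10 of 47 summits, or 21.3%, lay in gene bodies, which make up 40.9% of the bases searched. The 10 genes with more than 1 pooled summit, none of them inside, are among these 37, so this share is not independent of the counts above. It is no separate evidence for a flanking position.

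Within gene bodies fewer 50-base words occur once in the genome than in the flanks. In the 10 genes with a reproducible summit the median share of such words was 40.9% in the body and 100% in the 200 bp on each side. The 4 genes with a pair of summits had 31.2% to 81.2% in the body, with both flanks at 100%. Reproducible summits inside the gene were those of M163.13, with a body at 100%, sup-39 at 52.1% and F08H9.11 at 27.9%, the lowest of the 10. Within 25 bp of the summit itself the share was 100% at every reproducible summit except that of F08H9.11, at 29.4%. Both replicates placed the summit of F08H9.11 upstream instead, at -36 and -37. The handling of reads that map to several places is not given in the sources used here, and its part in the flanking pattern was not tested. In the 62 genes without a candidate the medians were 64.8% in the body and 100% in each flank, and 4 of them had no unique word upstream.

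**Figure D4:**
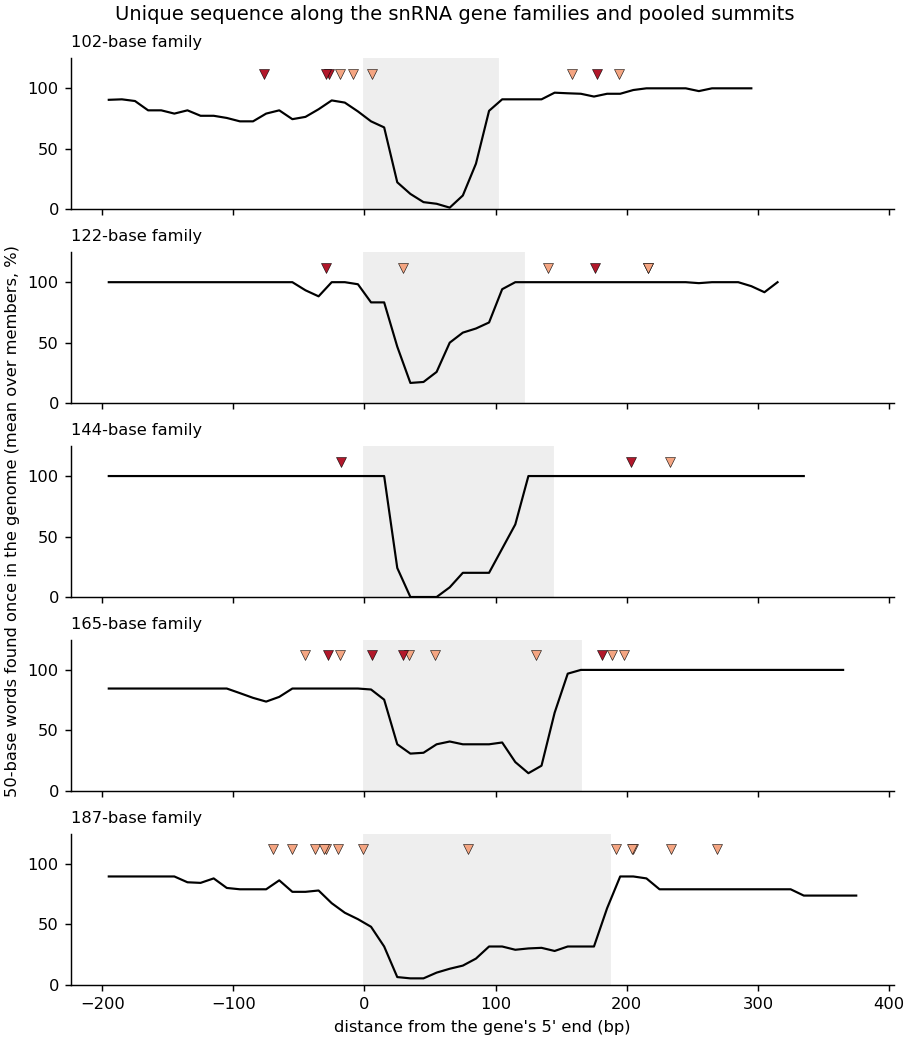
Mean share of 50-base words that occur once in the genome, in percent, along each of the 5 families, against distance from the 5′ end in bp. Grey shading is the gene body, and triangles mark pooled summits of genes with a reproducible summit (red) or a candidate only (orange). In each family the line dips inside the gene, and most triangles lie beside the dip.

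The strongest summit of each gene lay at a median of -9.5 bp from the 5′ end (range -77 to 181, n = 10 genes). The summit shared by sup-39, at 6, and mir-1831, at -1, enters this median for each gene, although it is 1 peak. The median moved with the list used. It was 25 over the 11 genes with a top-ranked entry in replicate 1 and -6.5 over the 12 in replicate 2. These sets differ from the 10 genes. Both add T08G5.11, at 158 in replicate 1 and 24 in replicate 2, and the second adds Y57G11C.35, at 273. The medians therefore do not compare the replicates over the same genes. For snoRNA genes the same median was -32.5 (quartiles -54.0 and -10.2, n = 70), for tRNA genes 19 (-21.0 and 53.0, n = 229) and for spliced-leader genes 91.0 (33.0 and 151.0, n = 9). With 10 genes and a pair of summits at several of them, no order among the classes was drawn.

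The reproducible list itself rests on the replicates, so their ranks are a description. All 10 genes were among the 1884 top-ranked entries of both replicates. Over all 99 genes, 11 had a top-ranked entry in replicate 1 and 12 in replicate 2, beside 3.5% and 3.31% of all annotated genes. Of the 27 genes with a candidate only, 13 had an entry in both replicate lists, 2 in replicate 1 alone, 7 in replicate 2 alone and 5 in neither. T08G5.11, of the 165-base family, was top-ranked in both, at 1147 and 1703, but stood at rank 6507 in the pooled list, with summits at 158 in replicate 1, 24 in replicate 2 and -45 in the pool. Among the 62 genes with no pooled candidate, 53 had no entry in either replicate.

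**Figure D5:**
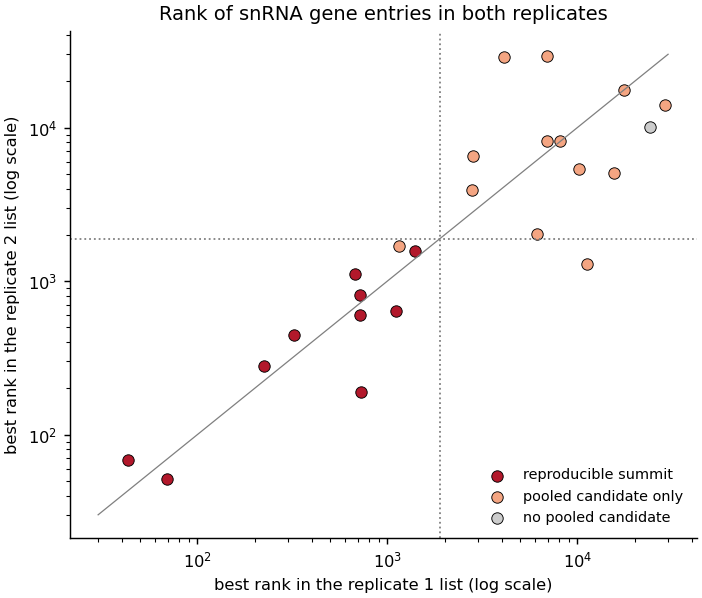
Best rank of each snRNA gene in the replicate 2 list against the replicate 1 list, on log axes, for genes with an entry in both. Dotted lines mark rank 1884, the grey line equal ranks, and all red points (reproducible summit) lie in the lower left corner together with 1 orange point (T08G5.11).

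The 5 genes of highest pooled signal without a reproducible summit were 4 of the 187-base family and smy-1. Y57G11C.35 had a signal of 158 at rank 2107, just under the lowest reproducible signal of 166, with ranks of 11216 in replicate 1 and 1299 in replicate 2. F11A5.14 followed at 146, with ranks 2780 and 3938, and F08G2.10 at 129, with ranks 6145 and 2039. The gene smy-1, which encodes an SmY RNA, had 115, and C05G6.4 had 111, both with an entry in replicate 2 only, at ranks 3972 and 11112. Over the 27 genes the pooled signal ran from 49.2 to 158, with a median of 85.8, and over the 10 genes with a reproducible summit from 195 to 638, with a median of 296.

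For the reproducible list, the farthest summit inside the window of 100 bp was that of R07E5.16, 77 bp from the gene, and the nearest outside it was 274 bp from smy-1, at signal 233. The third nearest outside, after one 1418 bp from F08G2.9, was 1904 bp from F20D1.21. Pooled summits lay nearer the edge, at 90 to 96 bp for K03B8.10, K09C6.12, F32B5.9 and Y69A2AR.36, and the pooled count was 29 genes at 50 bp, 37 at 100 bp and 43 at 200 bp.

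The upstream letters also differed between families. The commonest 6-letter word on either strand in the 100 bp upstream was GTACAC, or GTGTAC on the other strand, at 37 of the 99 genes (37.4%) beside 2.02% of all genes. It was found in 18 of 19 genes of the 187-base family, 9 of 10 smy genes and none of the 165-base family. None of the 10 genes with a reproducible summit held it, and 13 of the 37 with a pooled candidate did. The 187-base family and the smy genes had no reproducible summit, so word and family cannot be told apart here. AACCCG was next, at 33 genes (33.3%, beside 1.71%), including all 12 of the 122-base family and 4 of the 10. The gapped word was found in 11 of 13 genes of the 165-base family, 9 of 12 of the 122-base family, 4 of 5 of the 144-base family, 9 of 22 of the 102-base family and none of the 187-base family or the smy genes. TATATAA was found in 15 of 22 genes of the 102-base family, in 1 of the 187-base family and in 2 of the other genes. Copies within a family share upstream letters, so these counts are not independent.

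By position, 60 of the 99 genes overlapped a protein-coding gene, 48 of them without touching an exon, and 34 overlapped an antisense ncRNA. Of the 10 genes with a reproducible summit, 5 overlapped a protein-coding gene, with sup-39 and mir-1831 at 1 locus, and 4 overlapped an antisense ncRNA. All 5 lay in introns on the strand of the host gene. Over all snRNA genes, 37 of the 60 that overlapped a protein-coding gene were on its strand, a count that includes genes touching an exon. Another snRNA gene lay within 10 kb of 58 of the 99 genes, of 43 of the 62 without a candidate and of 3 of the 10. None of the 99 lay within 100 bp of a tRNA, snoRNA, rRNA or spliced-leader gene, and none of the 13 distinct reproducible summits lay within 100 bp of such a gene. Genes annotated as other ncRNA do lie under some of them. The summit of sup-6 at -28 lies inside F58G1.11 and F58G1.12, and that of C52E4.8 at -18 lies inside C52E4.14. By chromosome, the genes with a reproducible summit were 3 of 13 on II, 3 of 7 on III, 1 of 36 on IV, 2 of 28 on V and 1 of 3 on X, with none of 12 on I.

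Genes for proteins of the same pathway were counted by a reproducible summit between 1000 bp upstream and 200 bp downstream of the 5′ end, a window in which 4.18% of protein-coding genes had one. Of 31 genes for proteins of the snRNP particles, 5 did, or 16.1% (7.09 to 32.6). The summit for snr-4, which encodes an Sm protein, is the one 18 bp from C52E4.8, at -377 from snr-4, and the second summit of C52E4.8 lies at -598, so both peaks of the snRNA gene fall in the window of snr-4. The others were lsm-6 (signal 267, position -55) and lsm-8 (211, -380), which encode Lsm proteins, prp-19 (304, -636), which encodes a spliceosome-associated ubiquitin ligase, and snrp-200 (283, 129), which encodes a spliceosomal helicase. Of 26 genes for snRNA transcription and maturation, including SNAPc and Integrator subunits, none had one, which with 26 genes allows a share of up to 12.9%. A pooled candidate was found at 10 of these 26 genes and at 19 of the 31 snRNP genes. The share of all protein-coding genes with a pooled candidate in this window is not given, so these counts have no background. No test was made on either list.

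Some summits of the snRNA genes also fell in promoter windows of other protein-coding genes. That of F54D8.7 lay at -797 from cox-6A, a cytochrome c oxidase subunit gene, and that of sup-39 lay at -904 from eif-2Bgamma, a translation initiation factor gene. Both summits of F38E11.10 fell in the window of F38E11.9, at -573 and -778. The summit of F08H9.11 lay at -458 from srz-97 and -527 from clec-57. Which gene such a peak belongs to cannot be told apart from position.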

How the data were processed

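Peak lists of 2 replicates, their pool and a reproducible list were analysed on ce11. Per the deposited notes, each list was called against 1 control alignment, and the reproducible list was derived from the others by the irreproducible discovery rate. No source used here names the aligner, the peak caller or the cutoff, and the control was not analysed. The signal column deposited by the authors is the peak caller's value per peak, used only to describe and rank entries within a list. The files hold no read counts, so depth is unknown, and intervals cover counts of genes only.

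Genes came from Ensembl release 115 on WBcel235, and the 99 snRNA genes were named by RefSeq symbol, since Ensembl repeats names among copies. A summit counted within 100 bp of the gene body. Families chained genes of 90% identity and 90% length (Biopython 1.88), with at least 4 genes to be named by length. Words of 50 bases were counted on both strands of the genome, each placed at its centre. Positions count from 0 at the first base of the gene, with negative values upstream. Of the pathway genes listed, 31 of 32 and 26 of 31 symbols matched. Gene sequences of the other families are not reported here. No statistical test was run on the data, and the code that places summits was tested on simulated data. The genes and lists were chosen with earlier results of these data known. Genes named are those with a reproducible summit, the 5 strongest with a candidate only, those nearest the window's edge, and pathway genes with a reproducible promoter summit. Genes that illustrate a sequence, cluster or disagreement between replicates (Y17G9A.90, K09B11.16, T08G5.11, and those of the pooled list near the window's edge) were chosen after their values were seen.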

Additional observations from a re-analysis of the deposited data

How the results depend on the processing

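The count of 10 genes with a reproducible summit was 9 with a window of 50 bp, 10 with 200 bp, 11 with 500 bp, 10 by overlap of the peak interval with the gene and 9 among the 942 reproducible entries of highest signal. It was 11 or 12 with the top-ranked entries of 1 replicate alone, and 6 when near-identical copies were counted as 1 gene, by construction out of fewer genes. These 6 still count mir-1831 apart from sup-39. Leaving out mir-1831 from the count of 10 gave 9, an alternative chosen after seeing the data. The count of 37 genes with a pooled candidate ran from 28 to 37 in the list of 1 replicate alone and from 29 to 45 with windows of 50 to 500 bp. In the 87 genes with at least 50% unique words in both flanks, also chosen after seeing the data, 10 and 35 genes were counted. The median summit position of -9.5 bp ran from -6.5 to 25 with the top-ranked entries of 1 replicate alone, changing sign without replicate 2. These medians are over the 11 or 12 genes of that replicate, so the genes differ as well as the summits. The cause was not tested. The promoter-side share of 46.2% was 38.5% by interval centres. No paired analysis was possible because all samples form 1 group. The number of replicates, the unknown depth and the unknown treatment of reads that map to several copies limit every count.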
